A study of Homo sapiens with 6 samples.

Results

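The IL-1 family cytokines and receptors were followed in MCF10A cells after loss of DAB2IP, a Ras GTPase-activating scaffold protein. The group was 10 genes, taken from the deposited read count table of 58735 genes by exact gene name: the agonists IL1A, IL1B, IL18, IL33 and IL36G, the antagonists IL1RN and IL36RN, the signalling receptor IL1R1, its coreceptor IL1RAP and the decoy receptor IL1R2. MCF10A is an established nonmalignant breast epithelial line. One group of 3 libraries (siDAB2IP) came from cells given siRNA against DAB2IP and the other group of 3 (siControl) from cells given a nontargeting control pool, and RNA was taken 48 hours later in both. Both groups were grown in the same medium with horse serum, insulin, epidermal growth factor, cholera toxin and hydrocortisone, the last a glucocorticoid. A single siRNA reagent was used, and the labels do not say whether the 3 replicates were separate cultures, so p-values measure the spread between these libraries, which may be technical.

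IL-1 family cytokines are alarm signals of epithelium and of the immune system. IL-1α and IL-1β bind IL1R1, which recruits IL1RAP to start MyD88 and NF-κB signalling, while the receptor antagonist encoded by IL1RN occupies IL1R1 without starting a signal and IL1R2 binds the cytokines without a signalling domain. IL-18 and IL-33 are made by epithelial cells as ready stores, and IL-33 signals through IL1RL1 with the same coreceptor, IL1RAP.

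Libraries held 16353783 to 21916062 counted reads. DAB2IP itself was at 103, 94.2 and 77.4 CPM (reads scaled to a common library size) in siControl and at 27.5, 25.6 and 22.4 CPM in siDAB2IP. Its log2 fold change was -1.86 (SE 0.13, edgeR adjusted p = 9.71e-05), so the targeted gene was lower in all 3 libraries labelled as knockdown. All 9 basal markers of the line passed the count filter, and their values stand with those of the other cell types at the end.

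Of the 10 genes, 7 had enough counts for the test, and 5 of these were called (71.4%), against 14.2% of all 15430 genes tested. The genes were chosen with earlier results of these data known, so this excess is no support. IL1B, IL1RN and IL18 rose, where 6.55% of all tested genes did so. IL1R1 and IL1RAP fell, where 7.65% did. IL1A and IL1R2 did not pass, and IL33, IL36G and IL36RN were too low to be tested. The values of siControl and siDAB2IP did not overlap for any of the 7 tested genes, a separation also found for 35.9% of all tested genes. IL1R2 reached this test only through its siControl reads, so its separation is no support. In bulk RNA, fewer cells that express a gene and less RNA per cell cannot be told apart. The plot of CPM by library shows each value.

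**Figure D1:**
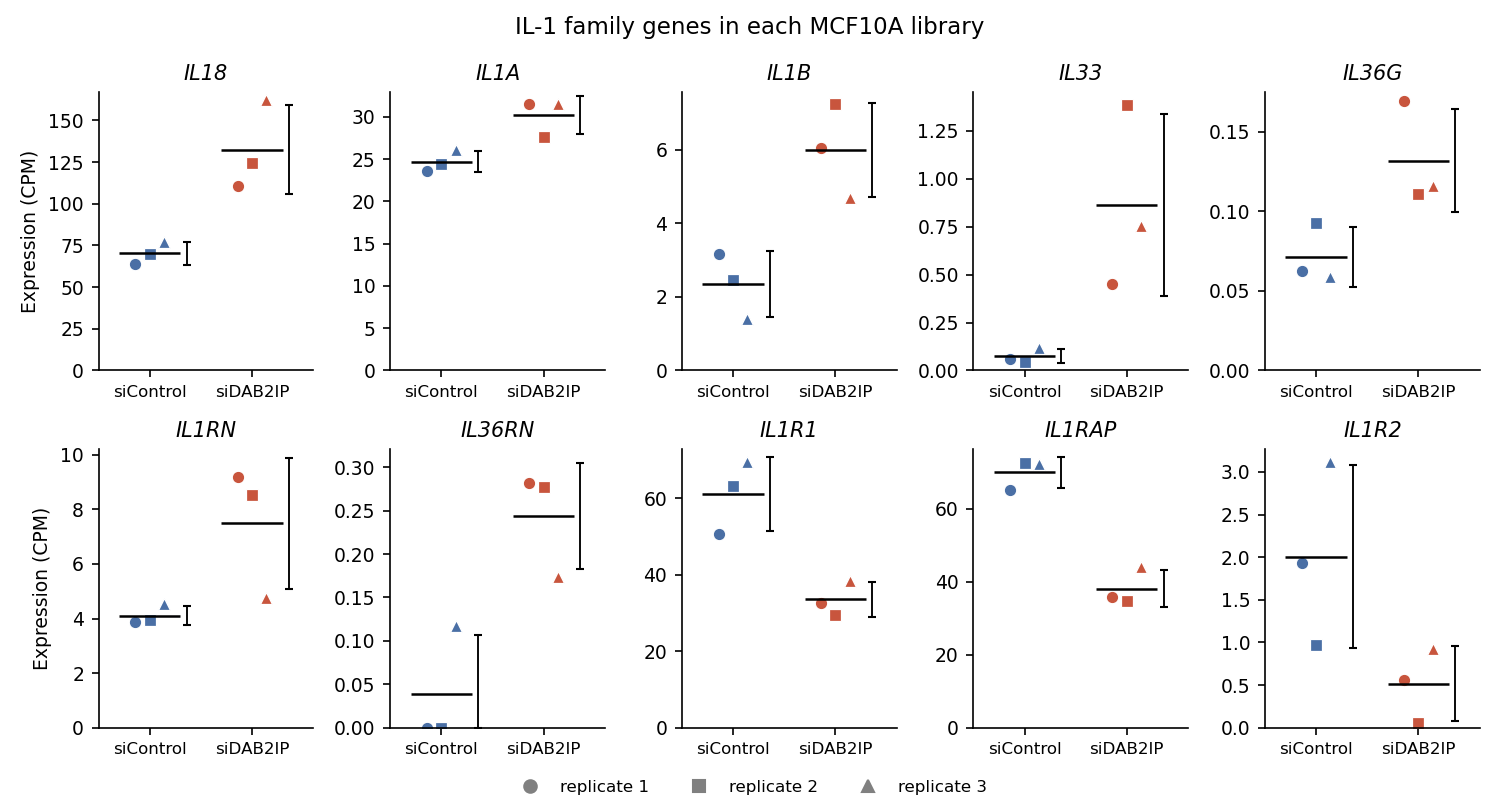
Expression of the 10 IL-1 family genes (CPM, linear axes from 0, with a separate scale for each gene) in the 3 siControl and 3 siDAB2IP libraries. Symbols are replicates, horizontal lines are means and error bars are 1 SD (n = 3), cut at 0; IL1RN in siDAB2IP replicate 3, at 4.75 CPM, lies close to the siControl libraries.

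Stretches from the 250 bases before the starts of 4 of the called genes are shown so that the bases in front of 2 genes that rose and 2 that fell can be compared. They are from the RefSeq promoter table (GRCh38.p14), are limited to bases outside the annotated exons of each gene, and run 5′ to 3′ on the strand of the gene. IL1B and IL1RN rose, and the stretches are chr2:112836904-112837029 on the minus strand and chr2:113127348-113127560 on the plus strand. IL1R1 and IL1RAP fell, and the stretches are chr2:102142496-102142745 and chr3:190513835-190514050, both on the plus strand. The stretches end 125 bases before the listed start of IL1B, 38 before that of IL1RN, 35 before that of IL1RAP and 1 before that of IL1R1. No letters are capitalised, since none of the motifs searched falls in these stretches.
IL1B: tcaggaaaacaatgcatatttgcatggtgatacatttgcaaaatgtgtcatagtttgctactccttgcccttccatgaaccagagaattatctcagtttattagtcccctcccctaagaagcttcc
IL1RN: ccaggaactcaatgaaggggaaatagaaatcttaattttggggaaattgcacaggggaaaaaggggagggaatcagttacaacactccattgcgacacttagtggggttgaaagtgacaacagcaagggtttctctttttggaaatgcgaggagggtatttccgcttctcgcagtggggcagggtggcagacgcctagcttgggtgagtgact
IL1R1: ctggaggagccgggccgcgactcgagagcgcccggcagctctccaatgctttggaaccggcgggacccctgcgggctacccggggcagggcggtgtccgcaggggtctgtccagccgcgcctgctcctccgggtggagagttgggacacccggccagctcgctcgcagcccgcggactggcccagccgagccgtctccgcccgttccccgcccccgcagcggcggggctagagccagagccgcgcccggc
IL1RAP: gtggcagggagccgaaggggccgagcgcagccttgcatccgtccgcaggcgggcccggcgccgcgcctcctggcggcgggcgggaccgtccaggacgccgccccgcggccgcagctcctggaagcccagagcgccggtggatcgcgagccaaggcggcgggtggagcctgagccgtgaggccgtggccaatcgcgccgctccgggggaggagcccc

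Of the 250 bases before each start, 76.8% were G or C at this IL1R1 start and 74.8% at IL1RAP, against 48.4% at this IL1RN start and less than that at IL1B. The median of all 35116 promoters in the table was 58.0%. IL1R1 has other starts in the table at 39.6% to 52.4% and IL1RN at 42.0% and 59.6%, and the read counts do not show which start was used. A TATA box (TATAAA), searched on both strands, lay 30 to 25 bases before the same IL1RN start, inside an exon of another transcript and outside the stretch shown, at the same distance before the IL1R2 start at base 101991960, and elsewhere before starts of IL1A and IL1R1, while 10.7% of all promoters held one. The AP-1 motif TGANTCA, which reads as a match on both strands, lay 12 to 6 bases before the IL1A start at base 112784493, 55 to 49 bases before the IL1A start at base 112784400, and 223 to 217 bases before the IL1RN start at base 113117971, and 6.57% of all promoters held it. Of the 9 members in the table, only IL1R2 had a match to the NF-κB consensus, 125 to 116 bases from its start at base 101991960, where 9.96% of all promoters held a match. IL18 was not matched in the table. A match describes letters and is not evidence of binding.

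IL18 was the agonist with the most RNA per length, and it rose. This gene (chr11:112143251-112164117, minus strand) encodes a precursor that caspase-1 cuts to active IL-18. It was at 63.6, 70.1 and 77.1 CPM in siControl and at 111, 124 and 162 CPM in siDAB2IP. The lowest siDAB2IP library was above the highest siControl library. Mean CPM was 70.3 ± 6.77 in siControl and 132 ± 26.5 in siDAB2IP (SD, n = 3), which is 1.88-fold (log2 fold change 0.91, SE 0.14, edgeR adjusted p = 0.00432). With any 1 library left out, the log2 fold change stayed between 0.74 and 1.03 and the call was kept.

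IL1B rose by the largest fold of the tested agonists, from a low level. It encodes IL-1β, which is also made as a precursor that caspase-1 cuts (chr2:112829751-112836903, minus strand). Its CPM values were 3.18, 2.46 and 1.41 in siControl and 6.04, 7.26 and 4.70 in siDAB2IP, from 51, 53 and 24 reads and from 107, 131 and 81 reads. All 3 siDAB2IP libraries were above all siControl libraries. The mean went from 2.35 ± 0.889 to 5.996 ± 1.28 CPM, a log2 fold change of 1.35 (SE 0.30, edgeR adjusted p = 0.0168) or 2.55-fold. Without siControl replicate 2 the log2 fold change was 1.38, and the call was lost (adjusted p = 0.0670).

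IL1A, which encodes IL-1α, a cytokine active also in its uncut form, lies next to IL1B on the same strand (chr2:112773915-112784590). Its values were 23.6, 24.4 and 26.1 CPM in siControl and 31.5, 27.6 and 31.5 CPM in siDAB2IP. The groups did not overlap, but the difference was small. The log2 fold change of 0.29 (SE 0.11) did not pass (edgeR adjusted p = 0.119), nor did it with any 1 library left out.

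IL33 was near the limit of detection in siControl and present at a low level in siDAB2IP. It encodes a nuclear alarmin released by damaged cells (chr9:6215786-6257983, plus strand). It had 1, 1 and 2 reads in siControl and 8, 25 and 13 reads in siDAB2IP. Summed over libraries and scaled to depth, 46 reads against 4 made a ratio of 11.8, with a 95% interval of 4.33 to 45.3 that covers counting error only. A count of 3, used here as the floor, corresponds to 0.137 to 0.183 CPM in these libraries. All siControl values of IL33 (0.0623, 0.0464 and 0.117 CPM) were under that floor, and all siDAB2IP values (0.451, 1.38 and 0.754 CPM) were above it. The gene did not reach the count filter. In the edgeR fit with no filter its log2 fold change was 3.42 (adjusted p = 0.000193). DESeq2 gave 3.54 and no adjusted p, because its own filter set the gene aside (unadjusted p = 0.000544), and limma on log2(FPKM + 1) with no filter did not call it (adjusted p = 0.1501).

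IL36G, an agonist of barrier epithelium (chr2:112973203-112985665, plus strand), had 1, 2 and 1 reads in siControl and 3, 2 and 2 in siDAB2IP. No difference was detectable at this depth, since the ratio of 1.80 had an interval of 0.458 to 8.40.

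Of the antagonists, IL1RN rose, and the result rested on 2 of the 3 siDAB2IP libraries. It encodes the IL-1 receptor antagonist (chr2:113107214-113134016, plus strand). Its values were 3.86, 3.95 and 4.52 CPM in siControl and 9.20, 8.53 and 4.75 CPM in siDAB2IP. Replicate 3 of siDAB2IP was only just above the highest siControl library. The mean went from 4.11 ± 0.358 to 7.49 ± 2.39 CPM, a log2 fold change of 0.87 (SE 0.25, adjusted p = 0.0479) or 1.82-fold. The call was lost when any 1 library other than siDAB2IP replicate 3 was left out (adjusted p from 0.102 to 0.165). Without siDAB2IP replicate 3 the log2 fold change was 1.11 (adjusted p = 0.00224). Within replicate numbers the log2 ratios were 1.25, 1.11 and 0.07.

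IL36RN encodes the antagonist of the IL-36 receptor (chr2:113058638-113065382, plus strand). It had 0, 0 and 2 reads in siControl and 5, 5 and 3 in siDAB2IP, a ratio of 6.70 with a counting interval of 1.52 to 61.1. The log2 ratio of 2.74 became 2.02 without siControl replicate 2, and without siControl replicate 3 no siControl read was left and no ratio could be formed. These few reads were not tested in the main fit, and in the fit with no filter the gene did not pass (log2 fold change 2.50, edgeR adjusted p = 0.280).

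RNA of both subunit genes of the signalling IL-1 receptor fell, in counts per gene that do not separate transcripts. IL1R1, the receptor that carries the IL-1 signal (chr2:102064544-102179874, plus strand), was at 50.7, 63.1 and 69.5 CPM in siControl and at 32.6, 29.6 and 38.4 CPM in siDAB2IP. Every siDAB2IP library was below every siControl library. The mean went from 61.1 ± 9.59 to 33.5 ± 4.51 CPM, a log2 fold change of -0.87 (SE 0.14, adjusted p = 0.00502), so the siControl level was 1.82-fold the siDAB2IP level.

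IL1RAP, the coreceptor shared by the IL-1, IL-33 and IL-36 receptors (chr3:190514051-190659750, plus strand), fell by nearly the same amount although it lies on another chromosome. It was at 65.0, 72.6 and 72.2 CPM in siControl and at 35.8, 34.6 and 43.9 CPM in siDAB2IP. The groups were well apart. The mean went from 69.9 ± 4.24 to 38.1 ± 5.06 CPM (log2 fold change -0.88, SE 0.12, adjusted p = 0.00204). Both receptor subunits kept their calls with any 1 library left out, with log2 fold changes from -1.005 to -0.78 for IL1R1 and from -0.99 to -0.81 for IL1RAP.

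IL1R2, the decoy (chr2:101991844-102028544, plus strand), was low and uneven. It had 31, 21 and 53 reads in siControl and 10, 1 and 16 in siDAB2IP, or 1.93, 0.975 and 3.11 CPM against 0.564, 0.0554 and 0.928 CPM. The highest siDAB2IP library was just under the lowest siControl library. The gene reached the count filter only through siControl, where it is high, so its calls in fits with this filter are no support. Its log2 fold change of -1.94 (SE 0.65) did not pass in the edgeR test (adjusted p = 0.0737). It did pass in the fit with a replicate block (-2.04, adjusted p = 0.0103), in DESeq2 (-1.96, adjusted p = 0.0236), with no filter on low counts (-1.95, adjusted p = 9.32e-05), without siDAB2IP replicate 3 (-2.66, adjusted p = 0.0244) and without replicate 3 of both groups (-2.19, adjusted p = 0.0484). With any other single library left out, adjusted p was 0.0821 to 0.244. In edgeR the gene did not pass with the size factors of DESeq2 (adjusted p = 0.0738) or library size only (adjusted p = 0.0782). Nor did it by limma on log2(FPKM + 1) with no filter (-0.48, adjusted p = 0.246).

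**Figure D2:**
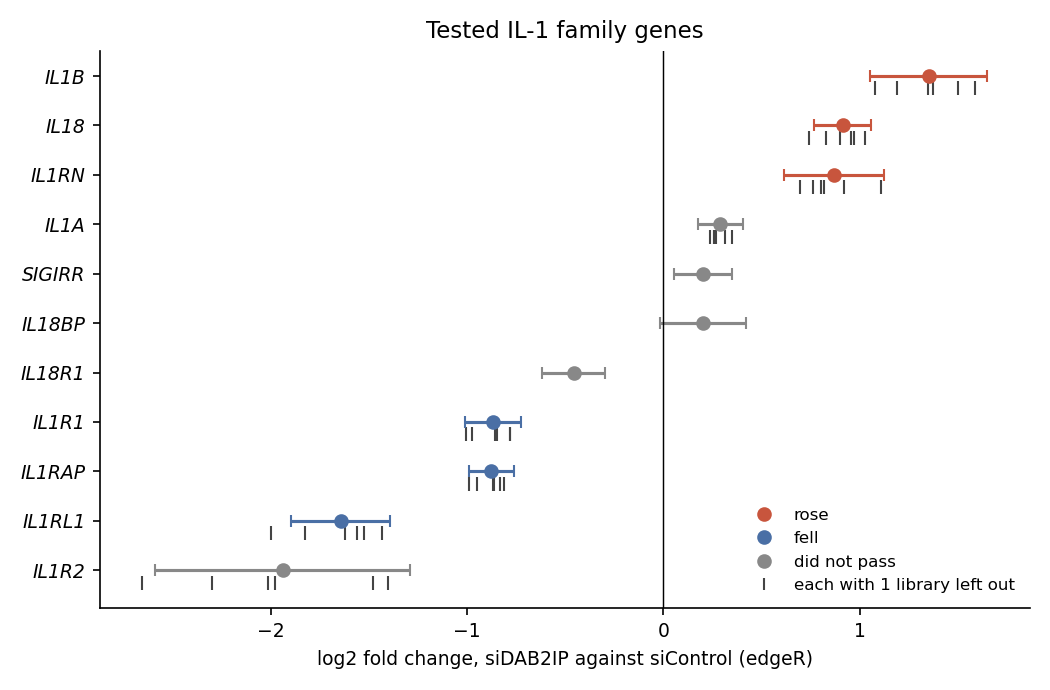
Log2 fold change (siDAB2IP against siControl, edgeR) of the 7 tested members and of 4 further IL-1 family genes, with bars of 1 SE, colored by call at an adjusted p under 0.05. Ticks under the 7 members and IL1RL1 are the values with 1 library left out in turn; they range from 1.08 to 1.59 for IL1B and from -2.66 to -1.40 for IL1R2.

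Levels were compared between genes in FPKM, in which fragments are scaled to gene length and to library size. In siControl the order was IL18 (26.5 ± 2.55 FPKM), IL1A (11.5 ± 0.595), IL1R1 (8.55 ± 1.35), IL1RAP (5.998 ± 0.373), IL1RN (1.25 ± 0.108), IL1B (0.752 ± 0.284) and IL1R2 (0.647 ± 0.344), with IL36G, IL33 and IL36RN below. The libraries of IL1B and IL1R2 overlapped. In siDAB2IP, IL18 was at 49.8 ± 9.93 FPKM and IL1A at 14.1 ± 1.07, followed by IL1R1 (4.68 ± 0.627), IL1RAP (3.26 ± 0.430), IL1RN (2.28 ± 0.730) and IL1B (1.92 ± 0.409). The values of IL1RN and IL1B overlapped there. IL33 (0.262 ± 0.145) and IL1R2 (0.166 ± 0.141) also overlapped.

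**Figure D3:**
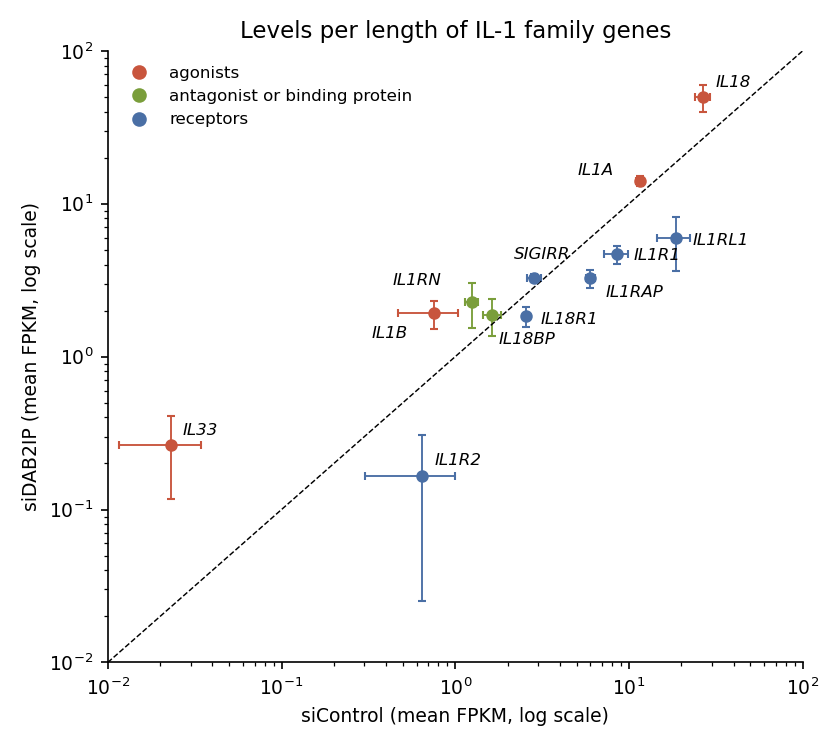
Mean FPKM in siDAB2IP against mean FPKM in siControl (log axes, bars of 1 SD, n = 3) for 8 of the 10 members and 4 further IL-1 family genes, with a dashed line of equal level; IL36G and IL36RN, with at most 5 reads in a library, are left out. IL18 is the highest gene in both groups (26.5 and 49.8 FPKM), and IL1R1, IL1RAP, IL1R2, IL1RL1 and IL18R1 lie below the line.

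Ratios of FPKM within a library describe the balance of these genes and were not tested. IL1A and IL1B together stood at 1.70, 1.38 and 1.30 times IL1R1 in siControl and at 3.65, 3.67 and 3.02 times in siDAB2IP, with no overlap. The ratio of IL1R1 to IL1RAP was 1.27, 1.42 and 1.57 in siControl and 1.49, 1.39 and 1.43 in siDAB2IP, and the groups overlapped. The antagonist IL1RN relative to IL1A plus IL1B was 0.0977, 0.0986 and 0.109 in siControl and 0.168, 0.171 and 0.0892 in siDAB2IP. Here siDAB2IP replicate 3 was the lowest of all libraries, so the groups overlapped. The decoy IL1R2 relative to IL1R1 was 0.0879, 0.0356 and 0.103 in siControl and 0.0399, 0.00432 and 0.0556 in siDAB2IP, again with overlap. IL1B relative to IL1A was 0.0923, 0.0691 and 0.0370 in siControl and 0.131, 0.180 and 0.102 in siDAB2IP. Of the summed FPKM of the 7 ligand genes, IL18 made up 64.4%, 66.3% and 67.3% in siControl and 67.9%, 71.8% and 77.2% in siDAB2IP.

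Of 12 other IL-1 family genes, 4 were tested and 1 was called (25.0%, against 14.2% of all tested genes). IL1RL1, the gene of the IL-33 receptor, fell, again in counts that do not separate transcripts. Its values were 115, 81.5 and 127 CPM in siControl and 49.3, 23.5 and 30.4 CPM in siDAB2IP. The groups did not overlap. The log2 fold change was -1.64 (SE 0.25, adjusted p = 0.00372), and in FPKM the mean was 18.6 ± 4.01 in siControl and 5.93 ± 2.31 in siDAB2IP. IL1RL1 overlaps IL18R1 on the same strand, so how shared reads were assigned could touch both. IL18R1, the IL-18 binding receptor chain, was at 11.2 ± 0.218 and 8.12 ± 1.201 CPM (log2 fold change -0.46, edgeR adjusted p = 0.0843). The second IL-18 receptor chain, IL18RAP, had 0 to 4 reads in each library. The soluble IL-18 inhibitor IL18BP was at 7.13 ± 0.844 and 8.20 ± 2.27 CPM (edgeR adjusted p = 0.583). The inhibitory receptor SIGIRR was at 10.1 ± 0.941 and 11.6 ± 0.698 CPM (edgeR adjusted p = 0.402). IL36A, IL37 and IL1F10 had no reads in any library, and IL1RL2, the IL-36 receptor, had 0 to 7. IL36B, IL1RAPL1 and IL1RAPL2 were also too low to be tested, each averaging at most 0.36 CPM in either group.

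Both chromosome 2 clusters hold members. The ligand cluster spans 360 kb (chr2:112773915-113134016) with 9 protein-coding genes. Of these, IL1A, IL1B and IL1RN were tested and all had log2 fold changes above 0, but IL1A did not pass. The receptor cluster spans 461 kb (chr2:101991844-102452565) with 6 genes. There IL1R1, IL1RL1 and IL18R1 had log2 fold changes below 0, but IL18R1 did not pass, and IL1R2 was tested only through its siControl reads. The median over all tested genes was 0.01, so a sign alone is no support. Beside the ligand cluster, CKAP2L fell (-1.20, edgeR adjusted p = 0.0466) and PSD4 did not pass (-0.32, adjusted p = 0.139). Beside the receptor cluster, MAP4K4 did not pass (0.10, edgeR adjusted p = 0.666). Genes that overlap a member on either strand averaged at most 0.12 CPM.

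Of 20 genes for the cutting and release of IL-1 family cytokines, 15 were tested, 1 rose and 1 fell (13.3% called, close to the 14.2% of all tested genes), with a median log2 fold change of -0.25 against 0.01 over all tested genes. CASP1, the protease that activates IL-1β and IL-18, fell from 29.1 ± 2.10 to 17.7 ± 2.57 CPM (-0.71, edgeR adjusted p = 0.0103). NLRP1, an inflammasome sensor of epithelium, rose from 9.32 ± 2.19 to 18.2 ± 5.38 CPM (0.97, adjusted p = 0.0267). The pore-forming GSDMD did not pass (51.5 ± 5.46 and 42.5 ± 3.13 CPM), nor did the adaptor PYCARD (1.48 ± 0.862 and 0.731 ± 0.267 CPM). Both were named after their values were seen. PYCARD reached the count filter only through its siControl reads, so its place in these counts is no support.

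Of 19 genes that carry signals from IL-1 family receptors, 17 were tested, 1 rose and 1 fell (11.8% called, under the 14.2% of all tested genes), with a median log2 fold change of 0.02. MAP3K8, the kinase upstream of ERK in this pathway, fell from 8.99 ± 0.391 to 3.36 ± 0.878 CPM (-1.42, edgeR adjusted p = 0.00351). TOLLIP, which restrains IRAK1, rose from 41.1 ± 2.31 to 54.0 ± 2.25 CPM (0.39, adjusted p = 0.0248). The adaptor MYD88 (27.5 ± 3.23 and 27.0 ± 3.83 CPM) and the kinase IRAK1 (213 ± 23.7 and 215 ± 22.9 CPM), named after their values were seen, had overlapping groups.

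Of 36 genes known to be induced by IL-1, 29 were tested, 5 rose and 13 fell (62.1% called, against 14.2% of all tested genes), with a median log2 fold change of -0.51. This list too was chosen with earlier results of these data known, so the excess is no support. Acute-phase and complement genes were among those that fell. SAA1 went from 1627 ± 136 to 470.7 ± 83.1 CPM (-1.79, edgeR adjusted p = 0.000222) and SAA2 from 191 ± 8.28 to 31.7 ± 7.30 CPM (-2.59, adjusted p = 9.71e-05), although reads of these near-identical copies may be split between them. The complement factor gene CFB also fell (-1.85, adjusted p = 0.00296). So did the mitochondrial superoxide dismutase SOD2 (-1.46, adjusted p = 0.00369), which overlaps WTAP on the opposite strand. The neutrophil chemokine CXCL2 (-1.42, adjusted p = 0.00377), the calcium-binding alarmin S100A8 (-2.06, adjusted p = 0.0121), the apoptosis inhibitor BIRC3 (-1.004, adjusted p = 0.00278) and the NF-κB cofactor NFKBIZ (-0.56, adjusted p = 0.00667) fell as well. The cytokine genes LIF (1.71, adjusted p = 0.000619) and CSF3 (0.57, adjusted p = 0.00953) rose. LIF overlaps AC004264.1 on the opposite strand.

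Named after their values were seen, PTGS2 and PTGES, which act in turn in prostaglandin E2 synthesis, and the chemokine CXCL8 were the other genes that rose, with log2 fold changes of 0.90, 0.61 and 0.59. MMP9, which fell, and IL6 reached the count filter only through siControl, where they are high, so their place in these counts is no support. IL6 was at 16, 20 and 24 reads in siControl and at 2, 4 and 13 reads in siDAB2IP and did not pass (-1.60, edgeR adjusted p = 0.0877). When siControl replicate 2 was left out, 1 gene of the list rose and 8 fell, and when siControl replicate 1 was left out, 2 rose and 9 fell.

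**Figure D4:**
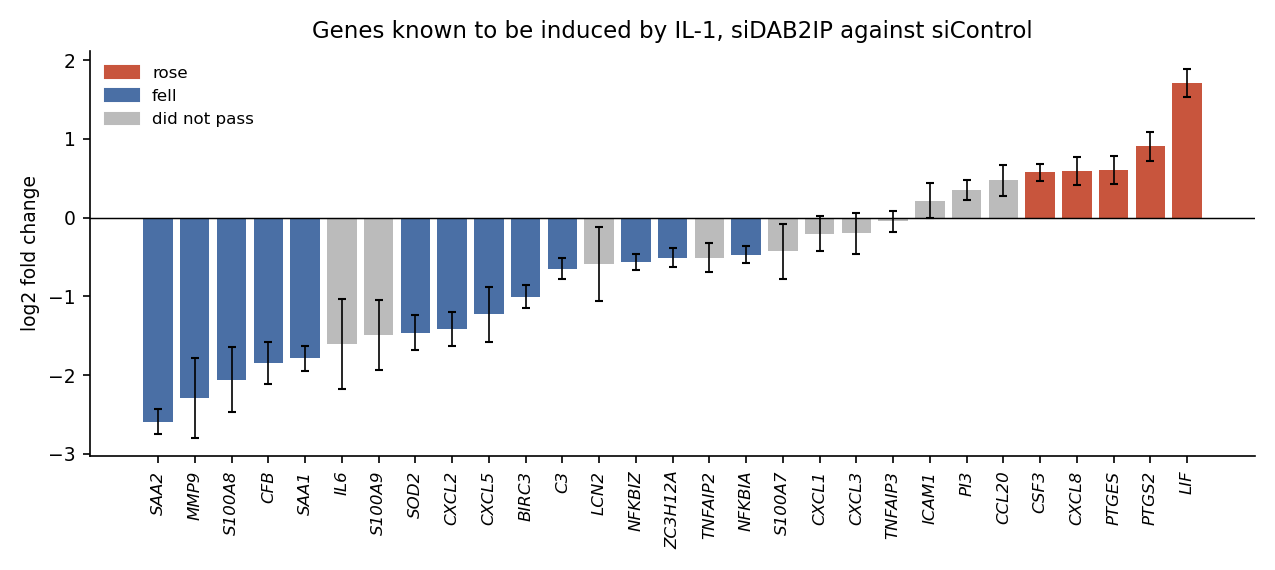
Log2 fold change (siDAB2IP against siControl, edgeR, bars of 1 SE) of the 29 tested genes of the list of IL-1-induced genes, ordered by value and colored by call. The 13 that fell run from SAA2 at -2.59 to NFKBIA at -0.47, and the 5 that rose from CSF3 at 0.57 to LIF at 1.71.

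Markers of cell types were read beside these results. The share of tested markers called was 44.4% for basal, 14.3% for suprabasal and 25.0% for luminal lists. It was 33.3% for leukocytes and 50.0% for fibroblasts, from 3 and 2 tested genes, against 14.2% of all tested genes. Of these, ITGAM and PDGFRB reached the count filter only through their siControl reads, so these 2 shares are no support. Of 9 basal markers, KRT5, KRT14 and KRT17 fell (log2 fold changes -0.97, -1.52 and -0.54), LAMB3 rose (1.02), and 5 did not pass: TP63 (-0.57), ITGA6 (-0.45), EPCAM (-0.40), ITGB4 (0.12) and CDH1 (0.09). The summed level was 9747 to 11732 CPM in siControl and 6866 to 8762 CPM in siDAB2IP. Without KRT5 the ranges overlapped (6617 to 7853 CPM and 5073 to 6918 CPM). Such sums, here and below, were taken after the values were seen. Of 8 suprabasal markers, 7 were tested and only KRT10 fell, and the sums were 424 to 666 CPM and 166 to 421 CPM. Most of that sum in siControl was KRT10, and without it, a sum taken after the values were seen, the ranges overlapped (134 to 152 CPM and 102 to 219 CPM). Of the leukocyte markers, CD3E had no reads, and PTPRC and LYZ averaged under 0.07 CPM. Of the 3 tested, CSF1R rose (8.15 ± 0.971 to 14.2 ± 2.34 CPM), and CD14 (0.18) and ITGAM (-0.76) did not pass. The leukocyte sums were 44.0 to 79.2 CPM and 67.5 to 89.98 CPM, mostly CD14. Without CD14 they were 8.10 to 11.2 CPM and 12.8 to 18.0 CPM, with no overlap. Most of what was left was CSF1R, so this separation restates the 1 gene that rose. The next in level, ITGAM, averaged 1.36 ± 0.572 CPM in siControl and 0.799 ± 0.429 CPM in siDAB2IP. Of 5 fibroblast markers, 2 were tested: COL1A1 rose (15.3 ± 1.24 to 26.3 ± 5.44 CPM) and PDGFRB did not pass (-0.61). COL1A2, COL3A1 and PDGFRA averaged under 0.09 CPM, and the sums were 15.1 to 17.8 CPM and 23.8 to 33.0 CPM. Without COL1A1 the ranges overlapped (1.06 to 1.35 CPM and 0.406 to 1.13 CPM). Of 3 endothelial markers none was called, and the sums were 11.05 to 16.0 CPM and 7.42 to 11.2 CPM. Of 6 luminal markers, 4 were tested and FOXA1 rose from a mean of 4.64 to 9.67 CPM (log2 fold change 1.05, SE 0.26, edgeR adjusted p = 0.0274), while KRT8, KRT18 and GATA3 did not pass. PGR, the progesterone receptor, had no reads, and ESR1, an estrogen receptor, was at 0.249 ± 0.118 CPM in siControl and 0.489 ± 0.107 CPM in siDAB2IP. The luminal sums were 303 to 318 CPM and 277 to 363 CPM. The part of these marker differences in the IL-1 family results was not tested.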

How the data were processed

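RNA-seq libraries of MCF10A cells, 3 siControl and 3 siDAB2IP, were analysed from 1 deposited table of read counts per gene and the FPKM values that the authors computed beside them. The submitters' processing notes name STAR 2.6.1d, featureCounts 1.5.0-p3, DESeq2 1.20.0, edgeR 3.24.3 and build hg38; the strand setting is not given in the sources used here. Counts were tested with edgeR 4.0.16 in R 4.3.3: genes were kept by filterByExpr (15430 of 58735), scaled by TMM and compared by the quasi-likelihood F test without covariates, two-sided, with Benjamini-Hochberg adjustment over all tested genes and calls at an adjusted p under 0.05. Standard errors are the log2 fold change divided by the square root of F. CPM values use TMM library sizes. The procedure was run on simulated counts, and the outcome is not given here. An exact permutation test of 3 against 3 libraries cannot go below p = 0.1 and was not used.

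Libraries with the same replicate number deviated together (residual correlations 0.26, 0.15 and 0.25, against -0.28 to 0.02 for unlike numbers), and a pairing by number was therefore inferred from the data. The reported fit does not use it. The fit with a replicate block is an alternative, beside other scalings and filters, DESeq2 1.42.0, limma 3.58.1 on log2(FPKM + pseudocount), a stricter threshold and leaving out libraries. Intervals of summed counts are exact, 95%, and cover counting error only, since duplicate reads were not marked by molecular identifiers. The members and gene lists were chosen with earlier results of these data known. Named were all members and other IL-1 family genes, up to 10 called genes of each list by p, and neighbours or overlapping genes in the clusters. For SOD2, listed under 2 identifiers, the one with reads was used. A leukocyte marker of the lists is not reported here. Promoters came from the RefSeq table (9 of 10 members matched) and were searched over 250 bases on both strands for the NF-κB consensus, TGANTCA and TATAAA.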

Additional observations from a re-analysis of the deposited data

How the results depend on the processing

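Of the members, 3 rose and 2 fell. With the replicate block the counts were 3 and 3, the addition being IL1R2. With no filter on low counts they were 4 and 3, the additions being IL33 and IL1R2. Over all genes, the block gave 1479 and 1754 against 1011 and 1181. IL1R2 reached the count filter only through siControl, where it is high, so its calls in fits with that filter are no support. At an adjusted p under 0.01, 1 member rose, with 254 genes higher and 368 lower overall. By limma on log2(FPKM + 1) with no filter, 0 members rose and 1 fell, with 176 and 202 genes overall; on log2(FPKM + 0.1) the overall counts were 659 and 758. With 1 library left out, 1 to 3 members rose and 2 to 3 fell (IL33 reached the filter in 4 of these 6 fits, only through siDAB2IP where it is high, so its 3 calls there are no support), and 264 to 1172 genes rose and 459 to 1352 fell overall. Of the IL-1-induced genes, for which all alternatives were chosen after seeing the data, 5 rose and 13 fell. Under limma these were 3 and 11 with a filter and 1 and 4 without, with the replicate block and with replicate 3 left out of both groups they were 6 and 17, with no filter on low counts 5 and 17, at an adjusted p under 0.01 they were 2 and 7, and with 1 library left out 1 to 5 rose and 8 to 16 fell. IL1RAP kept its call in every alternative, and no member changed direction. IL18, IL1R1 and IL1RL1 lost their calls only under limma with no filter (adjusted p = 0.0628, 0.0658 and 0.0637). IL1B lost its call there too (adjusted p = 0.112), and IL1RN also under limma with a filter (adjusted p = 0.0989 and 0.09996). Depth limits IL33, IL36G and IL36RN, with at most 25 reads in a library.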

Other observations

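Genes whose log2 CPM over the 6 libraries followed a called member most closely were read as a description, since all points share the same libraries and the groups differ. For IL1B these were PCDH1, FBXW2 and DAZAP2 (Pearson r 0.996 for each), and 190 tested genes reached 0.95. For IL18 they were PCBP4, B3GAT3 and CEP85 (0.998 for the first), with 381 genes at 0.95 or more, and for IL1RN they were UNC5A, SLCO3A1 and ETV4 (0.995 for the first), with 64. For IL1R1 they were NIPBL-DT, ZNF326 and GNAQ (0.997 for the first), with 157, and for IL1RAP they were NEDD4, PPARGC1A and AC021945.1 (0.998 for the first), with 184.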
